A study of Mus musculus with 20 samples.

Results

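Endothelial identity genes are the genes that mark the cells lining a blood vessel. Here they are 9 genes, Pecam1, Cdh5, Icam2, Kdr, Tek, Tie1, Eng, Emcn and Vwf. They were chosen by name, but with earlier results of these data known. The array measured 18193 genes with a probe set of a single gene symbol. The 9 genes were measured by 11 probe sets, 2 each for Cdh5 and Eng, and each gene was represented by its brightest one. All 9 reached the level required for testing, as did 11081 genes in all.

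Each of 20 Affymetrix arrays measured messenger RNA from a pool of 8 mouse aortas. Adult C57BL/6J mice ate chow containing rosiglitazone, a thiazolidinedione drug that activates the nuclear receptor PPARγ, at 3 mg/kg/day for 2 days (3 arrays) or 14 days (3 arrays) or at 10 mg/kg/day for 2 days (3 arrays) or 14 days (2 arrays), and their controls ate standard chow without it (3 arrays). In a separate experiment, adult P465L mice (3 arrays) were set against wild-type littermates (3 arrays), all on standard chow. P465L mice carry a PPARγ allele with a targeted mutation, described in the labels as dominant negative, placed at the gene's own locus and thus not limited to 1 cell type. The sources used here give neither the zygosity of the P465L mice nor the strain of either group of that experiment. Replicates are pools, so the errors below measure the spread between pools of mice.

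The endothelium is a single layer of cells on the inner face of the aorta, and the same genes also mark the small vessels of the adventitia and of the fat around the artery. Its cells are joined by VE-cadherin and PECAM-1, receive growth and survival signals through VEGFR2 and the Tie receptors, and store von Willebrand factor for release into blood. PPARγ is itself present in endothelial cells. In whole aortas, fewer cells of a type and less RNA per cell cannot be told apart, and this holds for every value below.

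All members were measurable: the mean signal over 20 arrays exceeded the testing threshold of 352 for the brightest probe set of each, which does not show in which cells they were expressed, with Kdr the dimmest at 522 and Pecam1 the brightest at 13413, although levels of different probe sets are not comparable as amounts of RNA. Further endothelial genes were present too, with 31 of 33 above the threshold. The arrays also carried the signals of other cells of the vessel wall, of perivascular fat and of blood. Median signals over all probe sets ranged from 321.3 to 450.7 per array. Arrays of a group correlated at 0.964 to 0.988 across the 11081 genes tested.

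Promoter windows of 300 bases around the transcription start, from 250 bases before it to 50 after, were found for 5 of the 9 genes, Eng, Emcn, Tek, Tie1 and Kdr (RefSeq, GRCm38.p6). Endothelial genes are known to be driven by ETS family factors, which bind around a GGAA core, and PPARγ binds repeats of AGGTCA-like half-sites together with its partner RXR. Windows are shown for Tie1 and Tek, whose signals moved together between pools, and for Emcn, the only one of the 5 windows with an AGGTCA match. Each is printed 5′ to 3′ on the gene's strand, and capitals mark the core GGAA or its reverse complement TTCC. The Tie1 window lies at chr4:118489800-118490099 on the minus strand, the Tek window at chr4:94739039-94739338 on the plus strand and the Emcn window at chr3:137340828-137341127 on the plus strand.
Tie1: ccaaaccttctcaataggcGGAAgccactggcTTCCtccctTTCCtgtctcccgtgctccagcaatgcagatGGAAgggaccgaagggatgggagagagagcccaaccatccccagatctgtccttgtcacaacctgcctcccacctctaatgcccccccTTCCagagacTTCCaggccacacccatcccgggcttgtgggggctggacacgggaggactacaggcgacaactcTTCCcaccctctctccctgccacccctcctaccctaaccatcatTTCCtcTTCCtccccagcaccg
Tek: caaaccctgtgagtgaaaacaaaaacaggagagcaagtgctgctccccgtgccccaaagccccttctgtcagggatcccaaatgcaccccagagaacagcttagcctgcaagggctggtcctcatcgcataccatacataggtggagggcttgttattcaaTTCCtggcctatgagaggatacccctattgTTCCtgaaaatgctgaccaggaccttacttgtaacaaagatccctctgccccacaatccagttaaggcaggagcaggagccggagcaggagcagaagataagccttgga
Emcn: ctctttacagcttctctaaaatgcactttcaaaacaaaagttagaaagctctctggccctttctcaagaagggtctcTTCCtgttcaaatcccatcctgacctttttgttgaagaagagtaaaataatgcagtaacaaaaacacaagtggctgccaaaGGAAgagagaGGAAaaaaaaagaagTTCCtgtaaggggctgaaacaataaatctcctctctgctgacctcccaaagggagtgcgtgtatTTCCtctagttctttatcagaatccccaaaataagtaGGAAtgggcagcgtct

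Counted on both strands, GGAA occurred 9 times in the Tie1 window, 2 times in Tek, 6 times in Emcn, 5 times in Kdr and 4 times in Eng. Such a short core is common: 96.0% of all 32851 promoter windows of this length held it, with a median of 3 matches, while 1.59% of windows held 9 or more. AGGTCA occurred in the Emcn window at 153 and 29 bases before the start and in none of the other 4 windows, and 16.3% of all windows held at least 1 match and 1.8% at least 2. The longer ETS sequence CCGGAAGT, held by 3.9% of all windows, was in none of the 5. A match is a description of the letters and not evidence of a bound site.

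Pecam1 fell with rosiglitazone, and no other member passed the test. Pecam1 (PECAM-1 or CD31; GRCm38 chr11:106654213-106715281) is an adhesion molecule of endothelial junctions that platelets and leukocytes also carry. Its signals were 13073, 12619 and 11062 after 3 mg for 2 days, 12704, 9758 and 12296 after 3 mg for 14 days, 11684, 11346 and 8794 after 10 mg for 2 days, and 12483 and 10085 after 10 mg for 14 days, against 18466, 16832 and 15342 in chow controls. All 11 rosiglitazone arrays lay below all 3 chow arrays, an arrangement that 1.26% of all genes tested showed. Averaged over the 4 rosiglitazone groups, Pecam1 fell by 0.57 on the log2(signal + 72) scale (SE 0.11, 95% interval -0.79 to -0.34, 0.676-fold), with an adjusted p of 0.0209 by limma over all genes. In that comparison 0.433% of all genes were called, that is, had an adjusted p under 0.05.

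Single rosiglitazone groups gave Pecam1 similar differences from chow. The log2 difference was -0.67 after 10 mg for 2 days (SE 0.13, adjusted p = 0.0326, limma), where 0.505% of all genes were called. It was -0.46 after 3 mg for 2 days (SE 0.13, adjusted p = 0.356), -0.55 after 3 mg for 14 days (SE 0.13, adjusted p = 0.268) and -0.58 after 10 mg for 14 days (SE 0.15, adjusted p = 0.109). In both 3 mg groups 0 of 9 members and 0% of all genes were called (limma). An unadjusted p under 0.05 was found for 978 genes at 2 days and 916 at 14 days. Pecam1 and Cdh5 were among them at both times, and Emcn at 2 days. Unlike Pecam1, Cdh5 was higher than chow there, by log2 differences of 0.49 and 0.41, and so was Emcn, by 0.42. In the 10 mg 14-day group 0 of 9 members and 0.271% of all genes were called. The 4 groups share the chow controls, so their differences are not independent of each other.

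The call on Pecam1 needed all 3 chow arrays. Without chow array A, B or C the average fold change was -0.50, -0.57 or -0.63 and the adjusted p was 0.149, 0.096 or 0.0732 (limma), and centring each array on its median gave -0.66 with an adjusted p of 0.0659, while the median of all genes moved to -0.11. The call after 10 mg for 2 days was lost without any of the 3 chow arrays (adjusted p 0.0522 to 0.147) and without 10 mg 2-day array B or C (0.0731 or 0.148).

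**Figure D1:**
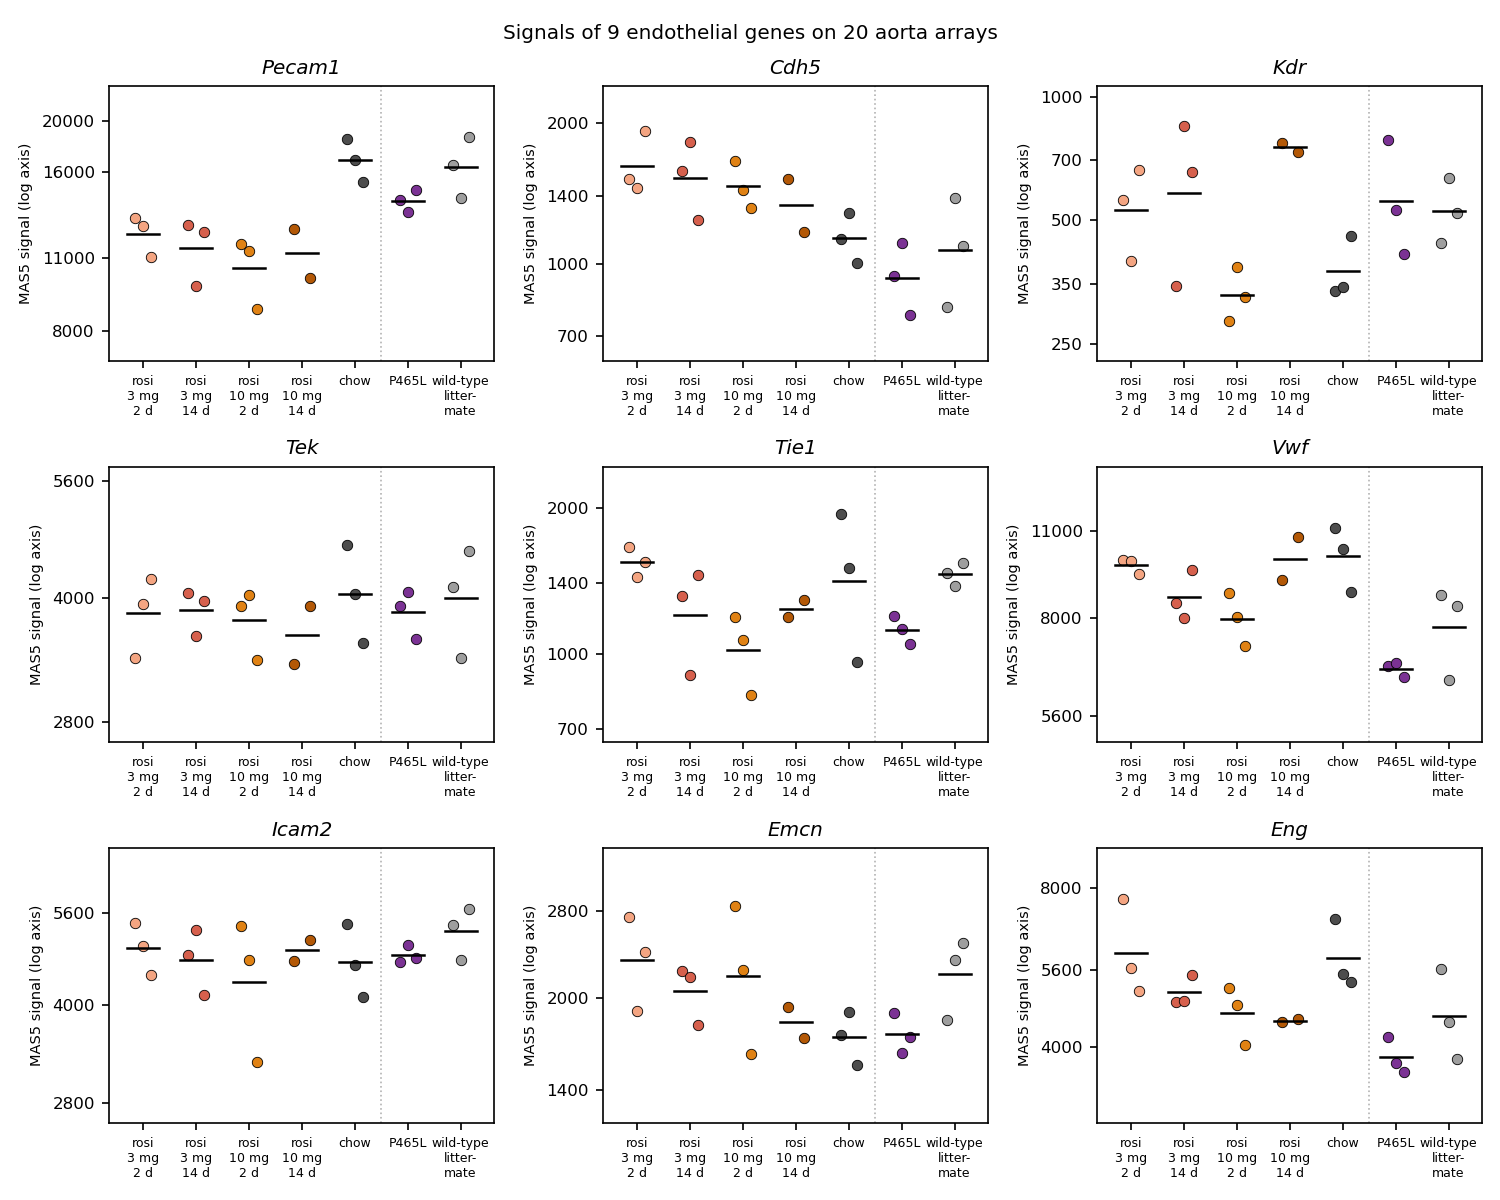
MAS5 signals (log axes, 1 panel per gene) of the 9 endothelial genes on each array, by group. Points are arrays of 8 pooled aortas, bars are group means taken on the log2(signal + 72) scale, and the dotted line separates the rosiglitazone experiment from the P465L experiment. Pecam1 lies between 8794 and 13073 on the rosiglitazone arrays and between 15342 and 18466 on the chow arrays, while the other genes overlap between all rosiglitazone arrays and chow.

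Cdh5 (VE-cadherin; chr8:104101613-104144504), the cadherin of endothelial adherens junctions, lay on the other side of its controls. Its signals were 1522, 1454 and 1919.6 after 3 mg for 2 days, 1582, 1819.8 and 1240.3 after 3 mg for 14 days, 1656, 1439 and 1318 after 10 mg for 2 days and 1522 and 1168 after 10 mg for 14 days, against 1131, 1283 and 1006 in chow controls. Most rosiglitazone arrays exceeded the highest chow array, but 1 array at 3 mg and 1 at 10 mg, both at 14 days, did not. The average log2 difference was 0.37 (SE 0.15, 95% interval 0.05 to 0.68, adjusted p = 0.272, limma), so Cdh5 was not called. The second Cdh5 probe set was too dim to be tested, with signals of 118 to 390 on rosiglitazone arrays and 220 to 329 on chow arrays, and its average log2 difference was -0.09.

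Icam2 (chr11:106377656-106388139), an adhesion molecule through which leukocytes bind endothelium, lies 266 kb from Pecam1 on the same chromosome. Its signals ranged from 3253 to 5386 (median 4800.0) on the 11 rosiglitazone arrays and were 5374, 4629 and 4111 in chow controls. The chow arrays lay inside the rosiglitazone range, and the average log2 difference was 0.01 (95% interval -0.23 to 0.26, adjusted p = 0.982, limma). Icam2 and Pecam1 thus had average differences of 0.01 and -0.57.

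Among the receptors, Kdr (VEGFR2; chr5:75932827-75979072), the main signalling receptor for VEGF, had the largest SD over the rosiglitazone arrays (0.49 on the log2 scale) and was the dimmest member. Its signals were 560, 397 and 663 after 3 mg for 2 days, 345, 850.0 and 656 after 3 mg for 14 days, 284, 384 and 326 after 10 mg for 2 days and 770 and 734 after 10 mg for 14 days, against 336, 344 and 459 in chow controls. Both 10 mg 14-day arrays were above every chow array, as for 14.8% of all genes tested. The log2 difference from chow was 0.88 after 10 mg for 14 days (SE 0.30, adjusted p = 0.233, limma), -0.16 after 10 mg for 2 days and 0.42 on average (SE 0.22, adjusted p = 0.383). None of these was called.

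Tek and Tie1, which encode the angiopoietin receptor Tie2 and its partner Tie1, lie on the same chromosome (Tek chr4:94739086-94874976, Tie1 chr4:118471191-118489849). Tek had signals of 3307 to 4222 (median 3911) on rosiglitazone arrays and 4664, 4051 and 3509 in chow controls, and an average log2 difference of -0.11 (SE 0.10, adjusted p = 0.706, limma). Tie1 had signals of 822 to 1658 (median 1290.5) on rosiglitazone arrays and 1945, 1502 and 962 in chow controls, which were the widest spread of chow arrays among the members (SD 0.49 on the log2 scale). Its average log2 difference was -0.18 (SE 0.16, adjusted p = 0.651). After 10 mg for 2 days Tie1 stood at 1192, 1069 and 822, a log2 difference of -0.45 (SE 0.20, adjusted p = 0.289), with arrays that overlapped chow.

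Eng (endoglin; chr2:32646595-32682669), a co-receptor for TGF-beta family ligands on endothelial cells, was read by 2 probe sets. The brighter one had signals of 7634, 5648 and 5102 after 3 mg for 2 days, 4878, 4887 and 5490 after 3 mg for 14 days, 5176, 4799.9 and 4036 after 10 mg for 2 days and 4456 and 4521 after 10 mg for 14 days, against 6989, 5499 and 5312 in chow controls. All 5 arrays at 10 mg were below all 3 chow arrays, whereas those at 3 mg overlapped them. Of all genes tested, 13.5% had every 10 mg 2-day array below every chow array, and 20.3% had both 10 mg 14-day arrays below them. The log2 difference from chow was -0.34 after 10 mg for 2 days (SE 0.15, adjusted p = 0.307) and -0.39 after 10 mg for 14 days (SE 0.17, adjusted p = 0.359, limma), neither of them called. The second Eng probe set gave -0.20 and -0.15 for the same groups. Its 10 mg arrays overlapped chow, with 10 mg 2-day array A at 2645 and chow array A at 2634. The share of all genes with all 5 arrays at 10 mg below chow was not computed.

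Emcn (endomucin; chr3:137341062-137431069) is a sialomucin of venous and capillary endothelium, and Vwf (chr6:125552948-125686679) encodes the clotting protein that endothelial cells store and secrete. Emcn had signals of 1610 to 2856 (median 2162) on rosiglitazone arrays and 1729, 1894 and 1540 in chow controls, an average log2 difference of 0.27 (SE 0.14, adjusted p = 0.388, limma). Vwf had signals of 7229 to 10741 (median 9198) on rosiglitazone arrays and 11098, 10313 and 8808 in chow controls, an average log2 difference of -0.15 (SE 0.10, adjusted p = 0.512). For Vwf the 10 mg 2-day arrays, at 8789, 8042 and 7229, were all below chow, as for 13.5% of all genes, with 8789 just under the lowest chow array at 8808, a log2 difference of -0.32 (SE 0.12, adjusted p = 0.203), while the 10 mg 14-day arrays at 9198 and 10741 were not.

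Over the 9 members, the average rosiglitazone difference was positive for 4 and negative for 5, with a median of -0.11 against -0.02 over all genes tested. Median centring made the split 3 and 6, and without chow array A the median was 0.04, with 5 positive and 3 negative. An unadjusted p under 0.05 was found for 2 members, Pecam1 and Cdh5, and for 14.2% of all genes. The 95% intervals include differences in either direction for Kdr, Tek, Tie1, Vwf, Icam2, Emcn and Eng.

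Relative to the other members of the same array, Pecam1 was low with rosiglitazone. Its log2 value exceeded the mean of the other 8 by 1.85 to 2.32 on the 11 rosiglitazone arrays (mean 2.13, SD 0.15), by 2.71 to 2.77 on the 3 chow arrays, by 2.55 to 2.84 on the P465L arrays and by 2.50 to 2.82 on the wild-type littermate arrays. The rosiglitazone arrays did not overlap those of any other group in this quantity. It was looked at because Pecam1 was already known to be low, and it is given without a test. It holds the same Pecam1 signals as above and so adds no separate support. The share of all genes with such a separation was not computed. The mean of the other 8 was 10.98 to 11.56 on rosiglitazone arrays and 11.14 to 11.44 on chow arrays.

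**Figure D2:**
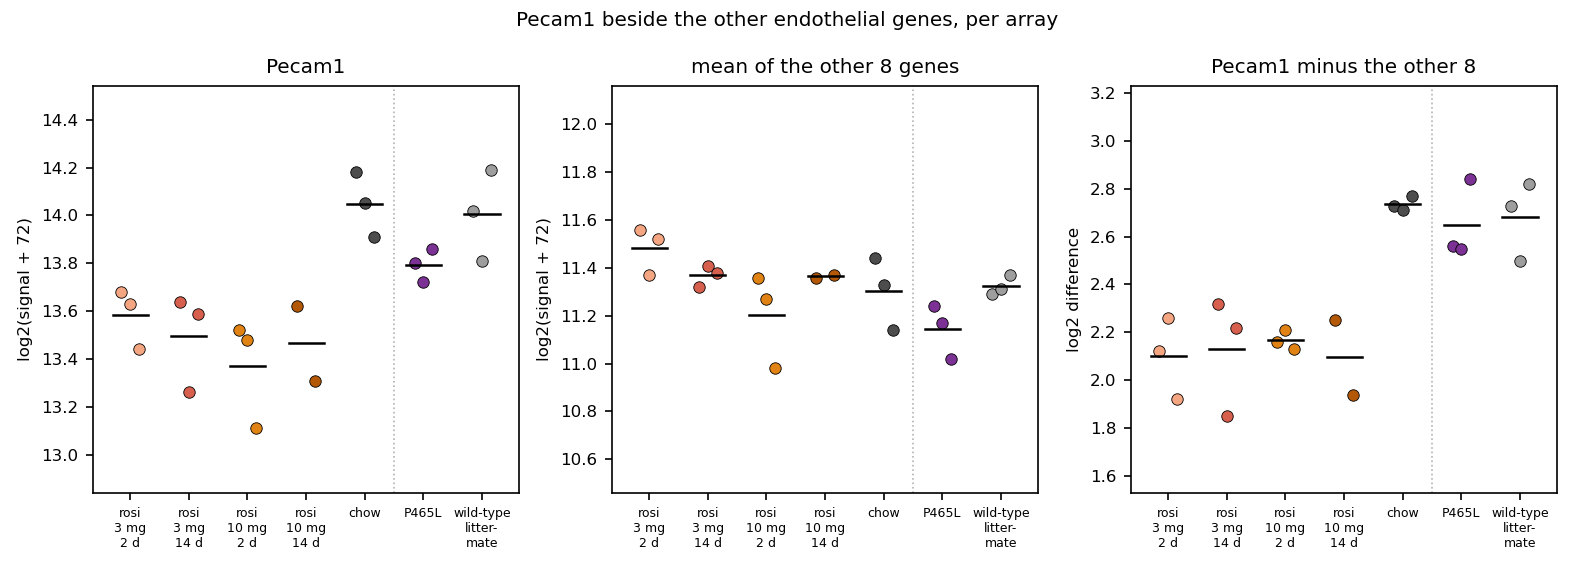
Pecam1 beside the other endothelial genes on each array: log2(signal + 72) of Pecam1 (left), mean log2(signal + 72) of the other 8 genes (middle) and their difference (right), by group. Points are arrays and bars are group means. The difference lies between 1.85 and 2.32 on rosiglitazone arrays and between 2.50 and 2.84 on all arrays of the other groups.

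Genes of 2 other cell types that carry PECAM-1 were read beside it. The leukocyte list, of which 9 of 11 genes were tested (Itgam and Cd3e were below the threshold), had 7 of 9 negative average differences and a summed signal of 38411 to 51316 on rosiglitazone arrays and 45073 to 54419 on chow arrays. After 10 mg for 2 days its differences were negative for 8 of 9, and Coro1a, an actin regulator of leukocytes, fell by 0.78 (SE 0.16, adjusted p = 0.0326, limma). That call was lost without any 1 of the 6 arrays of that comparison (adjusted p up to 0.164) and in 3 of 11 other settings. Of the platelet list, 6 of 8 genes were tested and 0 were called, with summed signals of 23770 to 36247 on rosiglitazone arrays and 24525 to 30542 on chow arrays. The platelet chemokine genes Pf4 and Ppbp had average log2 differences of 0.08 and -0.03. The part of leukocytes in the Pecam1 result was not tested.

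No member passed the test for dose or time. With 10 mg set against 3 mg, all 9 log2 differences were negative, under each of the 3 scalings used, with a median of -0.13 against -0.01 over all genes. 0 of 9 members and 0% of all genes were called (limma), and 1405 genes had an unadjusted p under 0.05. Lists of other cells moved the same way, with negative differences for 8 of 9 smooth muscle genes (median -0.18), 8 of 9 fibroblast genes (-0.17) and 8 of 9 leukocyte genes (-0.05). Differences were also negative for 8 of 10 adipocyte genes (-0.17) and 6 of 6 platelet genes (-0.09), against 18 of 31 further endothelial genes (-0.04). They were positive for 13 of 23 endothelial transcription factors (0.01), 7 of 11 capillary genes (0.05) and 7 of 13 VEGF and angiopoietin genes (0.02). In all of these lists 0 genes were called. Eng differed by -0.27 by its brighter probe set (SE 0.11, unadjusted p = 0.0267, adjusted p = 0.355), with signals of 4036 to 5176 at 10 mg and 4878 to 7634 at 3 mg, and by -0.05 by its second (SE 0.09). Other settings gave Eng -0.32 to -0.16. Tie1 differed by -0.26 (SE 0.15) with signals of 822 to 1290.5 at 10 mg and 905 to 1658 at 3 mg, and Pecam1 differed by -0.13 (SE 0.10, 95% interval -0.33 to 0.08). For Eng, Tie1 and Pecam1 the arrays of the 2 doses overlapped.

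A single array at 10 mg was low across the members. The 10 mg 2-day array C had the lowest value of its group for 8 of the 9 members and a mean log2 over the members of 11.22, against 11.60 and 11.52 on the other arrays of the group. Without it, 7 of the 9 dose differences were negative and 1 was positive.

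With 14 days set against 2 days, 4 members were higher and 5 lower, the median was -0.02, and 0 of 9 members and 0% of all genes were called (limma), against 464 genes with an unadjusted p under 0.05. Pecam1 differed by 0.00 between the times (95% interval -0.20 to 0.21). Kdr was the member with the largest time difference, 0.58 (SE 0.20, unadjusted p = 0.00926, adjusted p = 0.999), with signals of 345 to 850.0 at 14 days and 284 to 663 at 2 days. The interaction of dose and time, in which 0 of 9 members and 0% of all genes were called and 486 genes had an unadjusted p under 0.05, was 0.92 for Kdr (SE 0.40, adjusted p = 0.964), 0.61 for Tie1 (SE 0.30) and 0.48 for Vwf (SE 0.18). At 10 mg, the 14-day arrays of Kdr and Vwf were above all 2-day arrays, as for 9.17% of all genes, with Kdr at 770 and 734 at 14 days and 284 to 384 at 2 days.

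In P465L aortas no member passed the test. 0 of 9 members and 0.018% of all genes were called (limma), and 0 members and 823 genes had an unadjusted p under 0.05. The log2 difference from wild-type littermates was negative for 8 of 9 members under each of the 3 scalings, with a median of -0.21 against 0.01 over all genes, and Kdr was the exception at 0.07. Leaving out 1 array at a time kept between 7 and 9 of the differences negative. Some lists of other cells also leaned down, with 7 of 9 smooth muscle genes (median -0.24) and 7 of 9 fibroblast genes (-0.18) negative. The same held for 9 of 10 adipocyte genes (-0.45). Differences were positive for 8 of 9 leukocyte genes (0.14), 4 of 6 platelet genes (0.08) and 4 of 5 lymphatic genes (0.05).

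Tie1 had the largest P465L difference. Its signals were 1197, 1124 and 1045 in P465L aortas, against 1469, 1381 and 1536 in wild-type littermates, a log2 difference of -0.36 (SE 0.20, 95% interval -0.77 to 0.05, adjusted p = 0.676, limma). It was the only one of the 9 members whose P465L arrays were all below those of the littermates, and 6.99% of all genes showed that arrangement. Emcn had signals of 1881, 1616 and 1720 in P465L aortas, against 1836, 2317 and 2469 in littermates (log2 difference -0.32, SE 0.17, adjusted p = 0.676). The highest P465L array overlapped the lowest littermate array.

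For the remaining members the P465L arrays overlapped those of the littermates as well. Eng signals were 4181, 3724 and 3592 in P465L aortas, against 5628, 4465 and 3801 in littermates (log2 difference -0.25, SE 0.15), and the second Eng probe set differed by 0.07. Vwf signals were 6728, 6798 and 6455 against 8719, 6385 and 8357 (-0.22, SE 0.12), and Pecam1 signals were 14155, 13419.6 and 14769 against 16502, 14262 and 18608 (-0.21, SE 0.13, adjusted p = 0.712). In each of these 3 genes the P465L arrays lay closer together than the littermate arrays. Cdh5, Icam2 and Tek differed by -0.19, -0.12 and -0.06.

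**Figure D3:**
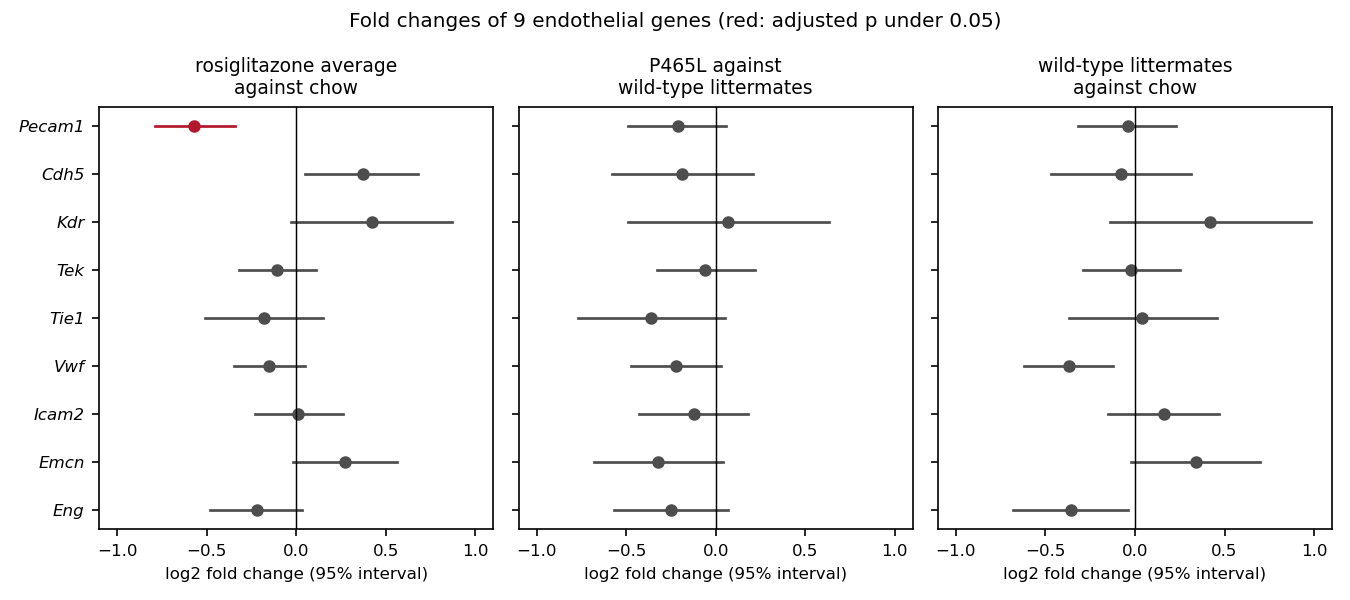
Log2 fold changes of the 9 endothelial genes with 95% intervals from limma, for the rosiglitazone average against chow (left), P465L mice against their littermates (middle) and wild-type littermates against chow (right). Red marks an adjusted p under 0.05, which only Pecam1 reached, at -0.57 in the rosiglitazone comparison; 8 of 9 points in the P465L comparison lie below 0.

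The rosiglitazone effect was then set against the P465L effect, each with its own controls. The difference between the effects was -0.35 for Pecam1 (SE 0.17, 95% interval -0.70 to 0.00, adjusted p = 0.49, limma), 0.59 for Emcn (SE 0.22, adjusted p = 0.35) and 0.55 for Cdh5 (SE 0.24, adjusted p = 0.446). 0 of 9 members and 0.108% of all genes were called. The interval for Pecam1 reaches from about the size of its rosiglitazone effect to no difference.

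Both untreated groups can be set side by side, although they come from separate experiments. Among wild-type littermates against chow controls, 6.49% of all genes and 0 of 9 members were called (limma). Vwf was lower in littermates at 8719, 6385 and 8357, against 11098, 10313 and 8808 in chow controls, a log2 difference of -0.37 (SE 0.12, adjusted p = 0.0686). Eng differed by -0.36 (SE 0.15, adjusted p = 0.163) by its brighter probe set. Its second probe set, at 2409, 1724 and 1904 in littermates against 2634, 2909 and 3065 in chow controls, differed by -0.51 (SE 0.12, adjusted p = 0.0175 in a fit over 19389 probe sets). Pecam1 differed by -0.04 (SE 0.13). Experiment, strain background and cohort cannot be told apart in this comparison.

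The order of the 7 groups differed from gene to gene. For Pecam1 the mean log2 was 13.37 after 10 mg for 2 days, 13.46 after 10 mg for 14 days, 13.50 after 3 mg for 14 days, 13.59 after 3 mg for 2 days, 13.79 in P465L, 14.00 in wild-type littermates and 14.05 in chow controls. Only 2 of its 6 neighbouring gaps exceeded the larger SD of the pair, those between 3 mg for 2 days and P465L and between P465L and littermates. Cdh5 had its 4 rosiglitazone groups on top (10.46 to 10.72) and P465L at the bottom (9.97), with 0 of 6 gaps above the SD. P465L was also lowest for Vwf (12.72) and Eng (11.93), and 10 mg for 2 days was lowest for Pecam1, Kdr (8.65), Tie1 (10.09) and Icam2 (12.11). Tek, Tie1 and Icam2 likewise had 0 of 6 gaps above the SD.

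Some pairs of members moved together across pools and others did not. Over the 36 pairs of members, the correlation of deviations from the group means across the 20 arrays had a median of 0.34 (range -0.47 to 0.76), and 25 were above 0. The highest were Tek with Vwf at 0.76, Tie1 with Vwf at 0.72, Pecam1 with Tie1 at 0.66 and Tek with Tie1 at 0.65, and the lowest was Pecam1 with Kdr at -0.47. These values share the arrays and their scaling and are given as descriptions. Correlations between pairs of other genes were not computed, so they do not show a link particular to the members. In chow controls the same array, A, was highest for 6 of 9 members and array C lowest for 8 of 9. The genes outside the set whose deviations followed the mean of the 9 members most closely were Pla2g7 (r = 0.857), 1700088E04Rik (0.844), Ccdc9 (0.824), Ywhae (0.802) and Prpf6 (0.789), and by values without subtracting group means Apoe (0.859), Cyp4b1 (0.806), Colgalt1 (0.775), Paxx (0.775) and Tex264 (0.774), all over 20 arrays.

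Further endothelial genes gave 0 calls of 31 tested with rosiglitazone on average (median -0.04) and 0 with P465L (median -0.07, 23 of 31 negative). The brightest were Mcam, an adhesion molecule of vessel cells, with log2 differences of -0.15 for rosiglitazone and 0.03 for P465L, and Cd34, a sialomucin, with -0.26 (adjusted p = 0.153) and 0.02. Among wild-type littermates against chow, Procr, the endothelial protein C receptor, was higher by 0.51 on the log2 scale (adjusted p = 0.0209), Cyyr1 was higher 2.01-fold (adjusted p = 0.0216), and Ace, the angiotensin-converting enzyme, was lower (log2 difference -0.64, adjusted p = 0.0114, limma). Over all lists, 15 genes were called between littermates and chow, and 13 of them lost the call without 1 or more single arrays (1 to 11 of 20 fits, adjusted p up to 0.203), Tgfb1 and Pdpn being the exceptions. With the mean of probe sets the adjusted p was 0.173 for Tgfb1, 0.501 for Cyyr1 and 0.365 for Ptprc (limma), so none of them was called. Dcn and Rbp7 also lost the call under that setting. Counts for these lists are to be read against the same shares of all genes given above.

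Genes that act upstream of the members or beside them gave no calls with rosiglitazone on average or with P465L. Of 23 endothelial transcription factors 0 were called with rosiglitazone (median -0.11) or P465L (median 0.01). Epas1, the hypoxia factor HIF-2α, differed by -0.16 with rosiglitazone (adjusted p = 0.234) and Klf4 by 0.06. Gata2, a factor of endothelial and blood cells, was lower in littermates than in chow controls by a log2 value of -0.43 (adjusted p = 0.0216, limma). The 13 VEGF and angiopoietin ligands and co-receptors had 0 calls in the same 3 comparisons, with a median of 0.09 for rosiglitazone and -0.02 for P465L. Nrp1, a VEGF co-receptor, differed by 0.26 (adjusted p = 0.298) and -0.07, and Ptprb, the phosphatase that acts on Tie2, by 0.07 and -0.06.

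The endoglin and TGF-beta list (15 of 16 tested) had 0 calls with rosiglitazone (median -0.08) and with P465L (median -0.02). Its brightest genes were Id3 and Tgfbr2, at -0.06 and -0.21 with rosiglitazone. Littermates were lower than chow controls for the ligand Tgfb1 (log2 difference -0.75, adjusted p = 0.00877) and for the inhibitory Smads Smad6 (-0.36, adjusted p = 0.0336) and Smad7 (-0.70, adjusted p = 0.011, limma). Binding partners of the adhesion members (12 of 15 tested) had 0 calls in all 3 comparisons, with medians of -0.13 for rosiglitazone and 0.01 for P465L. β-catenin (Ctnnb1), which binds VE-cadherin, differed by 0.02 with rosiglitazone and -0.18 with P465L, and moesin (Msn) by 0.02 and -0.05.

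Some of the genes listed for the capillary endothelium of fat and muscle did pass the test with rosiglitazone. This list was chosen with earlier results of these data known, so its calls and its median are descriptions and not an independent result. Of 12 genes 11 were tested, and 4 rose with rosiglitazone on average: the fatty acid binding proteins Fabp4 (0.84, adjusted p = 0.0257) and Fabp5 (0.94, adjusted p = 0.0257), the retinol binding protein Rbp7 (1.97, SE 0.34, adjusted p = 0.0197) and the butyrophilin Btnl9 (1.43, SE 0.23, adjusted p = 0.0179, limma). The list's median was 0.95, against -0.02 over all genes and -0.11 over the 9 members. Rbp7 signals were 652 to 2376 on rosiglitazone arrays and 187 to 447 on chow arrays. Rbp7 (2.08) and Btnl9 (1.48) also rose after 10 mg for 2 days, and Fabp5 (1.26), Rbp7 (2.37) and Btnl9 (2.03) after 10 mg for 14 days.

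These calls rested on few arrays. For the rosiglitazone average, 0 of the 11 genes were called without chow array A or without chow array C, and only Rbp7 and Btnl9 without chow array B or without 10 mg 14-day array A. With 1 of the 20 arrays left out, the log2 difference was 0.60 to 0.97 for Fabp4, 0.87 to 1.08 for Fabp5, 1.70 to 2.20 for Rbp7 and 1.32 to 1.54 for Btnl9. The calls of Fabp4 and Fabp5 were also lost under median centring and without a variance trend, and that of Fabp4 without the filter. For 10 mg at 14 days, other settings removed the call of Fabp5 in 6 of 11 fits, Rbp7 in 4 of 10 and Btnl9 in 2 of 9. For 10 mg at 2 days they removed that of Rbp7 in 1 of 10 and Btnl9 in 1 of 9. After 10 mg for 2 days, Rbp7 was not called without chow array A or C or any 10 mg array of that group, and Btnl9 without any 1 of the 6 arrays of that comparison. After 10 mg for 14 days, Fabp5 lost its call in 11 of 20 such fits, Rbp7 in 6, among them each without a chow array or a 10 mg 14-day array, and Btnl9 in 2, without chow array A or 10 mg 14-day array A.

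In P465L aortas the same list had 0 calls and 10 of 11 negative differences, with a median of -0.58. Rbp7 signals were 310 to 1028 in P465L aortas and 777 to 1470 in littermates. The rosiglitazone effect minus the P465L effect was called for Fabp4 (1.49), Rbp7 (2.78) and Btnl9 (2.51). Under other settings Fabp4 lost this call in 5 of 10 fits, Rbp7 in 6 of 9 and Btnl9 in 0 of 8. With 1 array left out, Btnl9 stayed called in all 20 fits, whereas Fabp4 lost its call in 7 and Rbp7 in 14. Littermates were higher than chow controls for Cd36, a fatty acid transporter (1.47), Fabp4 (0.76), Rbp7 (1.48) and Btnl9 (1.14). Fabp4 and Cd36 are also made by fat cells and macrophages.

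Fat cell genes were read beside that list. Of 13 adipocyte genes 10 were tested (Lep was below the threshold), and 9 had a positive average rosiglitazone difference, with a median of 0.43 and 0 called. Their summed signal was 116801 to 258130 on rosiglitazone arrays and 83522 to 135469 on chow arrays, and Adipoq (adiponectin) and Lpl (lipoprotein lipase) differed by 0.79 and 0.72. In P465L 9 of 10 were negative, with a median of -0.45 and sums of 97617 to 208861 in P465L aortas and 139952 to 231188 in littermates. Agpat2, a triglyceride synthesis enzyme, was higher in littermates than in chow controls (1.27, adjusted p = 0.0256, limma). The part of fat cells in the capillary gene result was not tested.

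**Figure D4:**
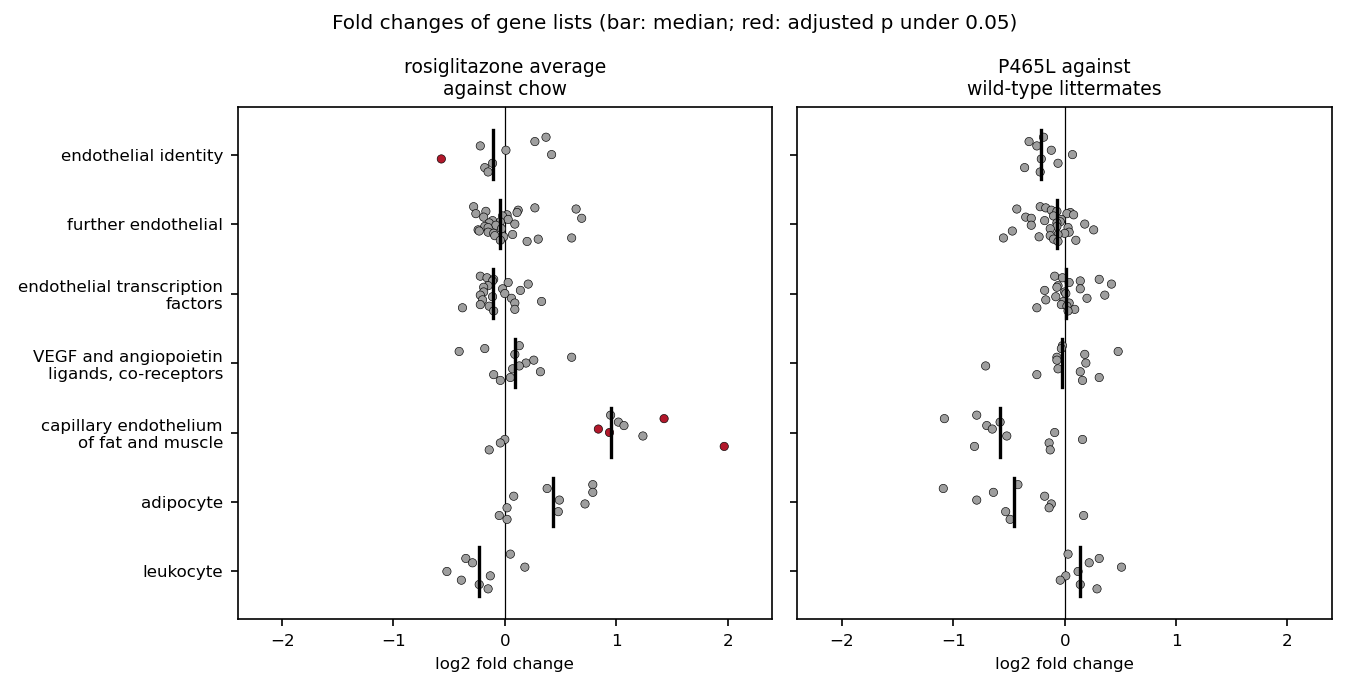
Log2 fold changes of the genes of 7 lists, for the rosiglitazone average against chow and for P465L against wild-type littermates. Points are tested genes, vertical bars are list medians and red marks an adjusted p under 0.05 (limma). The endothelial identity list has a median of -0.11 for rosiglitazone and -0.21 for P465L, and the capillary list 0.95 and -0.58. All lists were chosen with earlier results of these data known.

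Other cells of the vessel wall gave no calls with rosiglitazone on average or with P465L. All 9 smooth muscle genes were tested, with medians of -0.04 for rosiglitazone and -0.24 for P465L. Acta2, smooth muscle actin, differed by 0.20 and -0.30, and Tagln by 0.12 and -0.24. The 9 fibroblast genes had medians of 0.02 and -0.18, and the collagens Col3a1 and Col1a2 differed by 0.22 and 0.15 for rosiglitazone. Decorin (Dcn) was higher in littermates than in chow controls by 0.33 (adjusted p = 0.0437, limma). That call was lost in 6 of 10 other settings, among them the mean of probe sets. Over the 10 settings the difference ranged from 0.02 to 0.34.

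Lists of other vessels and of blood are given for completeness. Of 7 lymphatic genes 5 were tested, with medians of 0.13 for rosiglitazone and 0.05 for P465L and 0 calls in either. Lyve1, a hyaluronan receptor, differed by -0.04 with rosiglitazone, and Pdpn (podoplanin) was lower in littermates than in chow controls by a log2 value of -0.72 (adjusted p = 0.00453, limma). In P465L aortas 8 of 9 leukocyte genes were positive (median 0.14, 0 called), with sums of 49418 to 58086 in P465L aortas and 45747 to 52460 in littermates, and Lyz2 and Csf1r differed by 0.14 and 0.01. Ptprc, the pan-leukocyte gene CD45, was higher in littermates than in chow controls by 0.77 (adjusted p = 0.0161). Of 4 red blood cell genes only Alas2 and Slc4a1 were tested, at -0.32 and -0.16 for rosiglitazone and -0.42 and -0.93 for P465L, none called, and the platelet list had a P465L median of 0.08 with 0 called.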

How the data were processed

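The deposited intensity values were linear signals per probe set, made by the authors with MAS5, per the submitters' processing notes, with no version stated. The values showed that each array was scaled to a mean of 1500 after trimming 2% at each end, so a shift of most genes would not be seen. Of 45101 probe sets, 34945 had 1 gene symbol, 932 several and 9160 none. Signals were taken as log2(signal + 72), which understates changes of dim genes. A gene took its brightest single-symbol probe set and was tested if its mean reached the 50th percentile of all probe sets (8.73 on the log2 scale). A single limma 3.58.1 model (R 4.3.3) of 7 group means was fitted to 20 arrays with eBayes and a variance trend, and p-values were two-sided and adjusted by Benjamini-Hochberg over 11081 genes. It was tested on simulated data. The 9 members, the 13 other gene lists and the tests were chosen with earlier results of these data known. Named genes were all members, the called genes of each list, its 2 brightest where none was called, and the 5 genes most like the members by each measure. Array letters did not pair arrays: over 57 same-letter pairs the median r of deviations was 0.025 (-0.301 to 0.358). Positions are from RefSeq on GRCm38. Alternatives were probe set choice, offset, filter, scaling, variance trend, array weights, arrays included, letter blocks and leaving out each array. The number of arrays limits the precision. Python 3.11.15 and matplotlib 3.10.9 drew the figures.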

Additional observations from a re-analysis of the deposited data

How the results depend on the processing

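Over 1038 values of members recomputed under other settings, 1032 kept their direction or stayed uncalled, and so did 1972 of 1980 with 1 array left out; 19 and 69 uncalled values changed sign. Median centring left 0 members called for the rosiglitazone average (Pecam1 adjusted p 0.0659, limma) and for 10 mg at 2 days (0.0509). It moved member medians to -0.19 for 3 mg at 14 days, -0.30 for 10 mg at 2 days and 0.36 for the interaction. The medians of all genes moved as well, to -0.14, -0.15 and 0.16 in these 3 comparisons. Quantile normalization gave a member median of -0.29 for 10 mg at 2 days. The call of Pecam1 after 10 mg for 2 days was also lost, leaving 0, without a variance trend (0.0595) and in the rosiglitazone experiment alone (0.0598), and 1 member, Pecam1, was called for 10 mg at 14 days with array weights (0.0226). The mean of probe sets called 1 member, Eng, in littermates against chow (-0.43, adjusted p 0.0453). The cause was not tested. With 1 array left out, 0 to 1 members were called for the rosiglitazone average and for 10 mg at 2 days, and member medians ranged from -0.21 to 0.04 for the average, from -0.02 to 0.23 for the rosiglitazone effect minus the P465L effect and from 0.05 to 0.30 for the interaction. A lone remaining 10 mg 14-day array was assumed to vary like the other groups.

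Genes called in all moved more: other settings gave 17 to 260 for the rosiglitazone average, 13 to 612 for 10 mg at 2 days, 0 to 256 for 10 mg at 14 days, 385 to 1036 for littermates against chow, 3 to 88 for the difference of effects and 0 to 6 for P465L; 1 array left out gave 1 to 83, 0 to 103, 0 to 45, 279 to 904, 6 to 51 and 0 to 3. The letters do not pair the arrays; with a replicate block, Pecam1 stayed called for the rosiglitazone average (-0.57, adjusted p 0.02) and for 10 mg at 2 days (-0.67, 0.0256), and no other member was called. Fits of 1 experiment alone could not be made for littermates against chow or for the difference of effects. Kdr and the second Cdh5 probe set lay nearest to background.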
